A study of Mus musculus with 8 samples.

Results

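The genes described are 31 genes of mitosis and the spindle, chosen by name from the G2/M programme with the mitotic kinesin family left aside, and found as 31 of the 53465 rows of the count table. Cenpe is a motor of the kinesin superfamily that is kept here for its role at the centromere. PolyA RNA of Ba/F3 cells was sequenced. Ba/F3 is a mouse line of pro-B origin, established from C3H animals, that is usually kept alive with interleukin-3. The groups were 5 libraries of Ba/F3 cells transformed with U2AF35 carrying S34F (transformed 4 to 8) and 3 libraries of parental Ba/F3 cells with wild-type U2AF35 (parental 1 to 3). U2AF35, the product of U2af1, reads the AG at 3' splice sites as part of the U2AF splicing factor, and S34F lies in one of its zinc fingers. Nothing in the labels tells whether replicates are separate cultures, clones or repeats of 1 extract, so the p-values reflect the spread among these 8 samples alone, which may be technical. The sources used here do not give the culture medium. A sequencing lane in the labels puts transformed 5, transformed 8, parental 1 and parental 3 in lane 6, and transformed 4, transformed 6, transformed 7 and parental 2 in lane 7.

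Cells enter mitosis when CDK1, bound to cyclin A or cyclin B, becomes active. Polo-like and Aurora kinases then build the spindle, the spindle checkpoint holds the anaphase-promoting complex (APC/C) until the chromosomes are attached, and the APC/C ends mitosis by marking cyclin B for destruction. The mRNAs of these proteins peak together in G2 and mitosis, through the transcription factors FOXM1 and B-MYB and the MuvB complex, which binds a promoter element called CHR. In a growing culture their summed level is widely read as a sign of how many cells are dividing. In bulk RNA, fewer cells in G2 or mitosis and less RNA per such cell cannot be told apart.

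Total counts ran from 36122062 to 50050922 in the transformed libraries and from 45025892 to 50305573 in the parental ones. Transformed 4 and transformed 7 stood apart. The chi-square per degree of freedom between library pairs of the same group was 110.3 or more in the 7 pairs that held either of them and at most 39.6 in the other 6 pairs. U2af1 itself lay between 92.0 and 157 CPM in transformed and between 85.3 and 98.2 CPM in parental libraries, and gene counts do not separate an introduced copy from the endogenous gene. Of 12 pro-B markers, Cd79a, Cd79b and Il3ra were expressed, Rag1, Il7r and Kit had 0 counts in all 8 libraries, and the other 6 reached at most 0.153 CPM. Among markers of other cells, transformed 4 lay at an extreme of the macrophage, mast cell and stroma sums. Transformed 7 did so only for the macrophage and T cell sums. The 6 macrophage markers, mostly Adgre1, summed to between 56.8 CPM (transformed 4) and 414 CPM (transformed 7) in transformed and between 241 and 343 CPM in parental libraries, with C1qa at 0. Of these markers Cd68 was lower in all 5 transformed libraries, at 7.99 ± 0.427 CPM (SD, n = 5) against 10.96 ± 0.419 CPM (SD, n = 3) in parental cells, and it passed as lower (edgeR adjusted p = 0.0484, log2 fold change -0.46, SE 0.10). The macrophage markers did not move together. Of the 3 that were tested, 2 had negative log2 fold changes and 1 a positive one (1.97), which did not pass. The 6 mast cell and basophil markers summed to between 23.4 and 323 CPM, highest in transformed 4, against 80.9 to 106 CPM in parental libraries, with Fcer1a at 0. The 6 stroma markers summed to between 28.7 and 119 CPM, almost wholly Acta2 and highest in transformed 4, against 41.2 to 94.6 CPM in parental libraries, with Col1a2 and Col3a1 at 0. The 6 T cell markers reached at most 3.74 CPM in a transformed and 1.34 CPM in a parental library. Their part in the results was not tested.

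The 31 genes were chosen with earlier results of these data known, and all were measured in the same 8 libraries. The shares set against all genes therefore describe the list and do not test it. All 31 genes passed the filter on low counts, and all 31 had a negative log2 fold change, transformed over parental, against 47.7% of the 17733 genes tested. The median over the 31 genes was -0.28, with a range from -0.69 in Nusap1 to -0.04 in Mki67, against a median of 0.02 over all genes tested. With all 8 libraries the count of genes that passed was 0 of 31 in either direction in edgeR (Benjamini-Hochberg adjusted p under 0.05 over all genes tested), where 2.1% of all genes were called lower and 0.908% higher. At an unadjusted p under 0.05, 16 of 31 were lower (51.6%) and 0 higher, against 11.6% lower and 10.6% higher among all genes. By the other tools, DESeq2 called 5 of 31 lower (16.1%, against 5.67% of all genes) and limma-voom 0 of 31 (against 2.38%). In 14 of 31 genes (45.2%) all 5 transformed libraries lay below all 3 parental ones, against 9.69% of all genes tested. In 0 of 31 genes did all 5 lie above, against 8.07% of all genes. Together the 31 genes took between 0.484% and 0.643% of a transformed library's counts and between 0.662% and 0.695% of a parental one's, so the groups did not overlap.

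**Figure D1:**
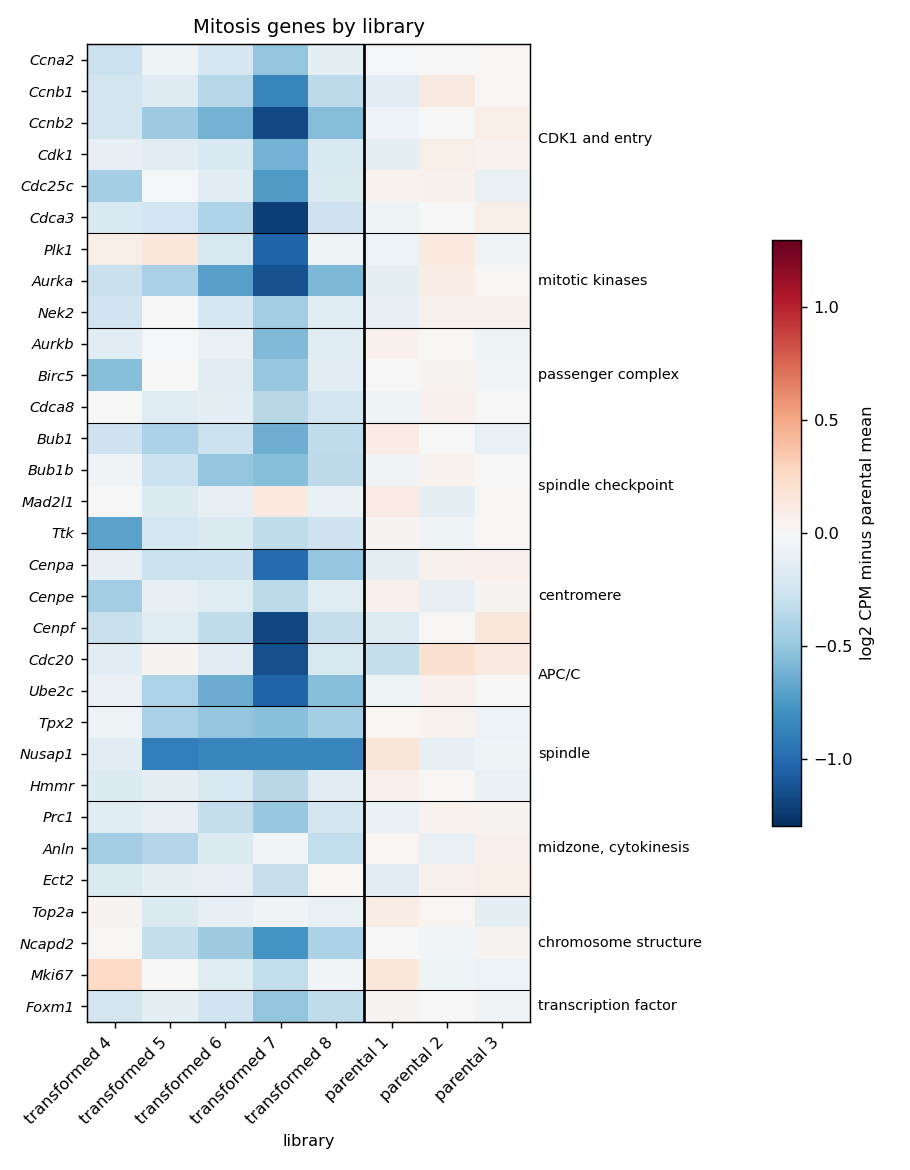
Log2 CPM of the 31 genes (rows, grouped by role) in the 5 transformed and 3 parental libraries (columns), minus the mean of the 3 parental libraries (colour, log2 scale). Blue, below the parental mean, fills most of the transformed columns, and transformed 7 is the lowest library in 24 of 31 genes.

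The mean over the 31 genes, as log2 CPM minus the parental mean, was -0.19, -0.20, -0.30, -0.63 and -0.28 in transformed 4 to 8, against -0.02, 0.02 and 0.00 in parental 1 to 3. Transformed 7 thus stood well below the other transformed libraries, which in turn stood below the parental ones. It was the lowest of the 8 libraries in 24 genes, transformed 4 in 4 and transformed 5 in 3, and no parental library was lowest in any. Without transformed 7 the median log2 fold change over the genes was -0.21, 30 of 31 were negative and Mki67 took the other sign (0.02). Within lane 6 the median was -0.18 with 29 of 31 negative, and within lane 7 it was -0.37 with 29 of 31 negative.

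The control of mitotic entry is described first. Cyclin B2 (Ccnb2, chromosome 9), a partner of CDK1, was at 141, 120.0, 109, 74.2 and 113 CPM in transformed 4 to 8 and at 159, 167 and 175 CPM in parental 1 to 3. Every transformed library lay below every parental one, and transformed 7 was the lowest. Means were 112 ± 24.3 CPM (SD, n = 5) in transformed and 167 ± 8.34 CPM (SD, n = 3) in parental cells, a log2 difference of -0.58 (SE 0.17). Ccnb2 did not pass with edgeR (adjusted p = 0.0957) but passed with DESeq2 (adjusted p = 0.0320). Cyclin B1 (Ccnb1, chromosome 13), the other B-type partner of CDK1, was at 96.0, 101, 87.5, 62.7 and 89.8 CPM in transformed 4 to 8 against 103, 123 and 116 CPM in parental 1 to 3. The groups again did not overlap, although transformed 5 and parental 1 lay side by side, and the log2 fold change was -0.38 (SE 0.15, edgeR adjusted p = 0.176). Reads of both genes may be shared with the pseudogenes Ccnb1-ps and Ccnb2-ps, whose counts reached at most 18.0% and 3.08% of those of their parent genes in a library.

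The remaining entry genes had log2 fold changes between -0.23 and -0.42. Cyclin A2 (Ccna2, -0.23, SE 0.11) and Cdca3 (-0.42, SE 0.20), an adaptor for destruction of the CDK1 inhibitor kinase WEE1, also separated the groups without overlap. Cdk1 itself averaged 119 ± 15.6 CPM (SD, n = 5) in transformed and 141 ± 10.7 CPM (SD, n = 3) in parental cells, and the phosphatase Cdc25c, which activates CDK1, averaged 22.7 ± 4.22 and 27.7 ± 1.55 CPM. In both of these genes 4 of 5 transformed libraries lay below all parental ones. Exons of Ccna2 and Cdc25c overlap genes on the opposite strand over 12.5% and 12.7% of their length, and no source used here gives the strand setting of the counts.

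The letters of these promoters tie many of the genes together. RefSeq windows (GRCm38.p6) from 250 bases before to 50 after a transcription start were found for 26 of the 31 genes, as 28 windows, and not for Aurkb, Ccna2, Cdc25c, Foxm1 and Tpx2. They were searched on both strands for TTTGAA and TTTAAA, the letters of the CHR element, and for CCAAT, the core of the NF-Y site. TTTGAA was found in 75.0% of the 28 windows, against 17.9% of all 32851 windows of that length and 12.8% of the windows of genes tested here. At least 1 of both CHR spellings was in 85.7% (27.6% of all windows), CCAAT in 85.7% (37.4%), CCAAT at least 2 times in 67.9% (11.7%), and a CHR spelling together with CCAAT in 78.6% (10.7%). Of 99 matches, 4 overlapped another match, in Cdca8 and Ube2c. A match describes letters and is not a bound site. Of the sequences below, the first 5 hold both kinds of letters at varied fold changes, and the last 2 hold neither although Nusap1 and Mad2l1 lie near opposite ends of the range of fold changes. Each runs 5′ to 3′ along the gene's strand from 130 bases before the start to base 10 of the transcript, with the matches in capitals. The positions are Ccnb2 chr9:70421545-70421684, minus strand, Ccnb1 chr13:100786477-100786616, minus strand, Cdk1 chr10:69352903-69353042, minus strand, Ube2c chr2:164769799-164769938, plus strand, Top2a chr11:99024180-99024319, minus strand, Nusap1 chr2:119618168-119618307, plus strand and Mad2l1 chr6:66535091-66535230, plus strand.
Ccnb2: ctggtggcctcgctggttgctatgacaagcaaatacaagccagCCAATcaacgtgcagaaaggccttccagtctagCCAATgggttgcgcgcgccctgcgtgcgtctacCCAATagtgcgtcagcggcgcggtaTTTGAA
Ccnb1: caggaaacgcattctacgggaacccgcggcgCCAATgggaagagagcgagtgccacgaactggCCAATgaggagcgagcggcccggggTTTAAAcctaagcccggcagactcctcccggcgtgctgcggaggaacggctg
Cdk1: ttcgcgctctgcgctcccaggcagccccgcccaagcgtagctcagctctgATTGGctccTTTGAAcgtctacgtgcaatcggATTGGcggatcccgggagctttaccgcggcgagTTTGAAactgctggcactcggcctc
Ube2c: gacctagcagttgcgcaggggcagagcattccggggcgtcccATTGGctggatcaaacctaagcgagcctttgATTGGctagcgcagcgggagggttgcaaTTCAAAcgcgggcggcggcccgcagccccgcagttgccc
Top2a: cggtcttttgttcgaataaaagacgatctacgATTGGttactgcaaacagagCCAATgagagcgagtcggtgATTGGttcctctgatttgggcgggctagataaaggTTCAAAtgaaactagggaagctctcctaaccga
Nusap1: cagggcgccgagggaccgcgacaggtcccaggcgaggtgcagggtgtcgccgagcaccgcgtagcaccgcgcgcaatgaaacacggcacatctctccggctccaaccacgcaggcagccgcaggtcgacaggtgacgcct
Mad2l1: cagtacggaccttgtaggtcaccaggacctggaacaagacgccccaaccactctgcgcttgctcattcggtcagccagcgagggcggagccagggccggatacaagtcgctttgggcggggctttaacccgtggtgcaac
In Ccnb1, CCAAT began 99 and 67 bases before the start, and TTTAAA 42 bases before it. Cdk1 carried TTTGAA 71 and 15 bases before the start and the reverse form ATTGG 80 and 48 bases before it. The 20 genes with both a CHR spelling and CCAAT had a median log2 fold change of -0.31. The 6 that lacked at least 1 of these had a median of -0.26, with a range from -0.69 in Nusap1 to -0.05 in Mad2l1. Of these, Anln and Birc5 held a CHR spelling, Bub1 and Nek2 held CCAAT, and Nusap1 and Mad2l1 held neither.

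Among the mitotic kinases, Aurora A (Aurka, chromosome 2), which matures centrosomes and builds the spindle poles, was at 85.7, 78.1, 64.2, 47.7 and 69.7 CPM in transformed 4 to 8 and at 96.7, 112 and 106 CPM in parental 1 to 3. All 5 transformed libraries were lower than the parental ones, transformed 7 most of all. The means were 69.1 ± 14.5 CPM (SD, n = 5) and 105 ± 7.83 CPM (SD, n = 3). On the log2 scale the change was -0.60 (SE 0.17, edgeR adjusted p = 0.0827, DESeq2 adjusted p = 0.0205). Polo-like kinase 1 (Plk1, chromosome 7), which acts from mitotic entry to cytokinesis, was at 132, 139, 109, 61.0 and 121 CPM in transformed 4 to 8, against 119.6, 137 and 122 CPM in parental 1 to 3. Here only transformed 7 stood far below, and its value was 48.6% of the mean of the other 4 transformed libraries. The log2 fold change of Plk1 was -0.17 (SE 0.23) with all libraries and 0.12 within lane 6. Nek2, a kinase that splits the centrosomes, averaged 71.0 ± 7.85 CPM (SD, n = 5) in transformed and 82.4 ± 5.34 CPM (SD, n = 3) in parental cells.

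Of the chromosomal passenger complex, which corrects wrong spindle attachments and later guides cytokinesis, 3 subunits are among the 31 genes, with log2 fold changes between -0.25 and -0.17. Survivin (Birc5, chromosome 11), its targeting subunit, was at 111, 162, 147, 115 and 148 CPM in transformed 4 to 8 and at 163, 166 and 158 CPM in parental 1 to 3. Transformed 4 and 7 were low, while transformed 5 lay within the parental range, and the log2 fold change was -0.25 (SE 0.13, edgeR adjusted p = 0.304). Its kinase Aurora B (Aurkb) and the subunit borealin (Cdca8) had log2 fold changes of -0.18 (SE 0.12) and -0.17 (SE 0.09).

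The spindle checkpoint genes split. Bub1 (chromosome 2), a kinase that recruits checkpoint proteins to the kinetochore, was at 109.8, 99.6, 109, 85.3 and 105 CPM in transformed 4 to 8, against 142, 132 and 124 CPM in parental 1 to 3. The groups did not overlap and the spread within each was small, with means of 102 ± 10.01 CPM (SD, n = 5) and 132 ± 9.12 CPM (SD, n = 3). For Bub1 the log2 fold change was -0.38 (SE 0.10, edgeR adjusted p = 0.0732, DESeq2 adjusted p = 0.0166), with -0.37 in lane 6 and -0.38 in lane 7. BubR1 (Bub1b, chromosome 2), part of the complex that inhibits the APC/C, was at 199.6, 169.8, 144, 141 and 163 CPM in transformed 4 to 8 and at 201, 213 and 206 CPM in parental 1 to 3. Transformed 4 lay just under the parental libraries and the other 4 well under them (log2 fold change -0.34, SE 0.12, edgeR adjusted p = 0.142). The checkpoint kinase Ttk (chromosome 9) was at 42.1, 58.0, 59.7, 54.1 and 56.5 CPM in transformed 4 to 8, against 69.7, 65.6 and 68.9 CPM in parental 1 to 3. In Ttk it was transformed 4, not transformed 7, that lay lowest (log2 fold change -0.33, SE 0.12, edgeR adjusted p = 0.147). Mad2l1, which encodes the MAD2 protein that holds CDC20, had overlapping groups, at 171 ± 14.2 CPM (SD, n = 5) and 177 ± 14.1 CPM (SD, n = 3). Its log2 fold change was -0.05 (SE 0.10), and its highest value, 193 CPM, was in transformed 7.

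At the centromere, the motor Cenpe (chromosome 3), which carries chromosomes to the spindle equator, was at 118, 150.3, 145, 127 and 145 CPM in transformed 4 to 8 and at 169, 150.4 and 166 CPM in parental 1 to 3. The groups did not overlap, but transformed 5 and parental 2 were nearly equal (log2 fold change -0.24, SE 0.10, edgeR adjusted p = 0.206). The centromeric histone Cenpa and the kinetochore protein Cenpf had log2 fold changes of -0.40 (SE 0.18) and -0.42 (SE 0.20), and in transformed 7 they stood at 49.8% and 43.7% of their parental means. Among the genes of the APC/C step, Ube2c (chromosome 2), its ubiquitin-conjugating enzyme, was at 119, 95.5, 80.3, 61.3 and 86.0 CPM in transformed 4 to 8, against 121, 131 and 125 CPM in parental 1 to 3. Transformed 4 was close to the parental level and the other 4 lay clearly below it (log2 fold change -0.51, SE 0.18, edgeR adjusted p = 0.141). Cdc20, the activator of the APC/C, was at 106, 119, 106, 52.7 and 101 CPM in transformed 4 to 8 and at 93.5, 133 and 126 CPM in parental 1 to 3. Its groups overlapped, with transformed 7 alone far below the rest, and its log2 fold change was -0.28 (SE 0.24) with all libraries and 0.01 within lane 6. Ube2c exons overlap those of Tnnc2 on the opposite strand over 22.8% of their length, and Tnnc2 had at most 2 counts in a library, whereas Elovl1, which overlaps 2.84% of the exons of Cdc20, reached 126.6% of its counts.

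Of the spindle proteins, Nusap1 (chromosome 2), which bundles microtubules near chromosomes, showed the most negative log2 fold change of the 31 genes, -0.69 (SE 0.18, edgeR adjusted p = 0.0706, DESeq2 adjusted p = 0.0101). It was at 203, 119.9, 124, 125 and 124 CPM in transformed 4 to 8, against 250.2, 208 and 216 CPM in parental 1 to 3. Transformed 5 to 8 were nearly equal to each other, and transformed 4 lay just under parental 2. The microtubule nucleation factor Tpx2 (chromosome 2), which also activates Aurora A, had the same arrangement, at 254, 198, 187, 183 and 196 CPM in transformed 4 to 8 and at 271, 275 and 253 CPM in parental 1 to 3. Its log2 fold change was -0.39 (SE 0.12, edgeR adjusted p = 0.0961, DESeq2 adjusted p = 0.0364), and transformed 4 overlapped parental 3. Hmmr, a spindle and hyaluronan-binding protein, averaged 125 ± 7.86 CPM (SD, n = 5) in transformed and 145 ± 7.76 CPM (SD, n = 3) in parental cells, without overlap.

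For the midzone and cytokinesis, Prc1 (chromosome 7), which cross-links the central spindle, was at 116, 120.2, 104, 91.9 and 109.7 CPM in transformed 4 to 8, against 121, 133 and 133 CPM in parental 1 to 3. The groups did not overlap (log2 fold change -0.25, SE 0.10, edgeR adjusted p = 0.182). Anillin (Anln, chromosome 9), a scaffold of the contractile ring, was at 87.7, 92.4, 106, 117 and 96.0 CPM in transformed 4 to 8 and at 122, 113 and 126 CPM in parental 1 to 3. Its order among transformed libraries was unlike that of most genes, since transformed 7 was the highest and fell within the parental range (log2 fold change -0.27, SE 0.11, edgeR adjusted p = 0.181). Ect2, the exchange factor that starts furrowing, had a log2 fold change of -0.14 (SE 0.10). Rccd1 overlaps 11.1% of the Prc1 exons on the opposite strand and had up to 46.3% of its counts.

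Among the chromosome proteins the differences varied. Condensin subunit Ncapd2 (chromosome 6) was at 294, 235, 211, 169.9 and 218 CPM in transformed 4 to 8 and at 292, 283 and 298 CPM in parental 1 to 3. Transformed 4 was at the parental level and the other 4 lay below it (log2 fold change -0.37, SE 0.15, edgeR adjusted p = 0.201). Topoisomerase II alpha (Top2a), which untangles sister chromatids, and the proliferation marker Mki67, which coats mitotic chromosomes, had log2 fold changes of -0.08 (SE 0.08) and -0.04 (SE 0.13). Mki67 was highest in transformed 4 (1157 CPM) and lowest in transformed 7 (773 CPM), with parental libraries between 911 and 1059 CPM.

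The transcription factor Foxm1 (chromosome 6), which drives many of these genes, was at 106, 115, 105, 87.9 and 99.9 CPM in transformed 4 to 8, against 129, 126 and 122 CPM in parental 1 to 3. The groups did not overlap and the log2 fold change was -0.29 (SE 0.09, edgeR adjusted p = 0.123). Per kilobase of annotated exon, mean levels in transformed and parental cells were highest for Top2a, at 161 and 170.0 CPM per kb, and lowest for Cdc25c, at 4.61 and 5.63 CPM per kb. On the same per-length scale Mki67 exceeded Ccnb2 in transformed cells, with 93.4 against 72.9 CPM per kb, while Ccnb2 exceeded Mki67 in parental cells, with 109 against 96.0 CPM per kb, a switch of order that was not tested.

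**Figure D2:**
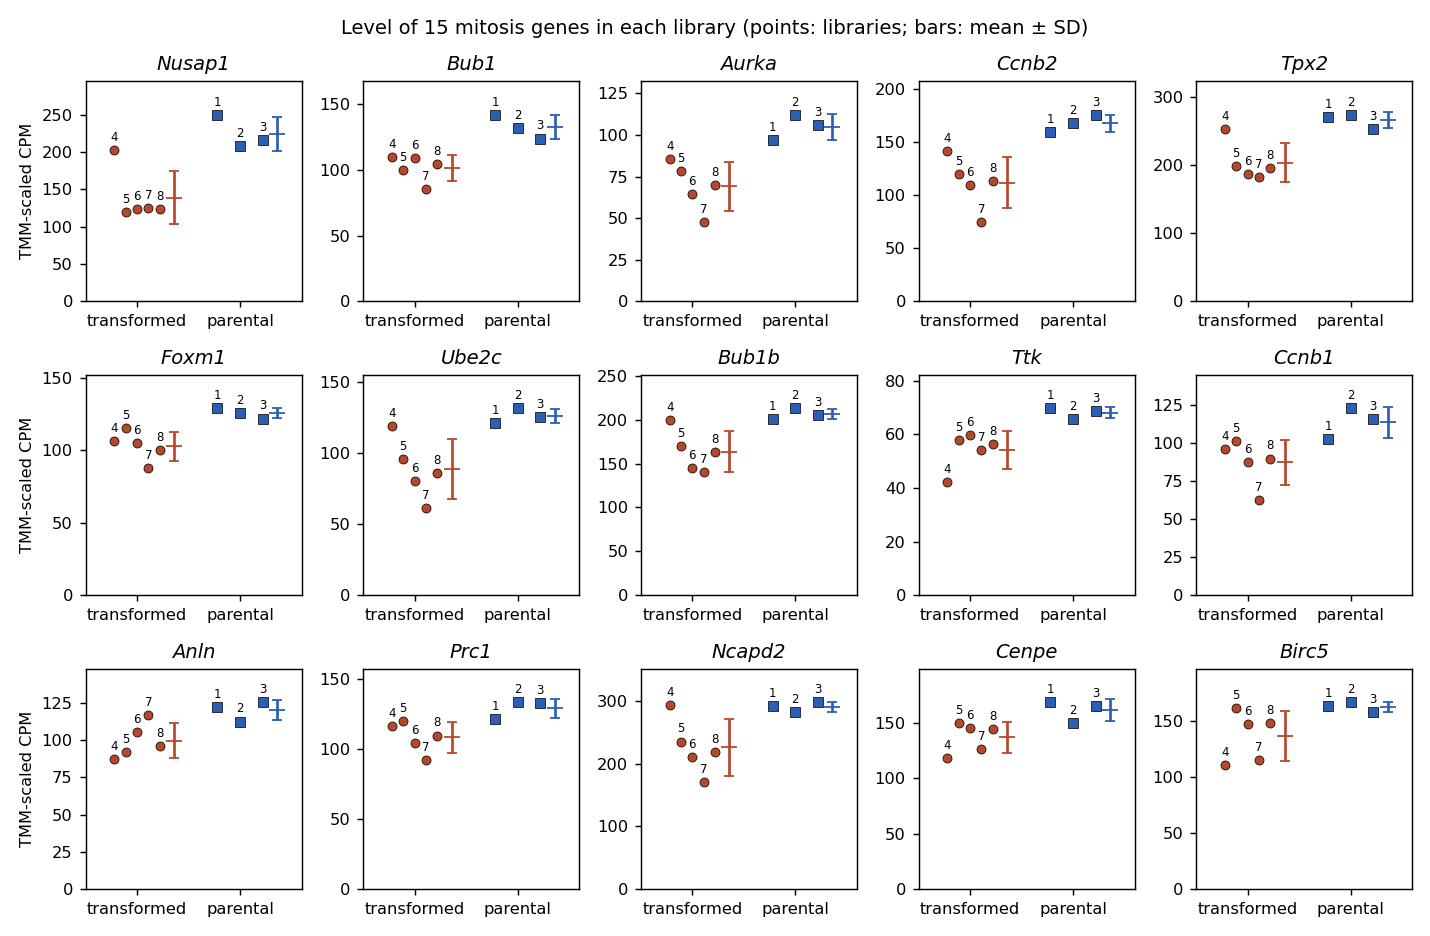
TMM-scaled CPM (vertical axes, linear from 0) of the 15 genes given library by library, in 5 transformed libraries (circles) and 3 parental ones (squares), numbered by replicate, with the mean ± SD of each group. Transformed 7 is lowest for Aurka (47.7 CPM) and Ccnb2 (74.2 CPM), transformed 4 is highest of its group for Nusap1 (203 CPM) and lowest for Ttk (42.1 CPM).

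Transformed 7 did not lower all the genes alike. Relative to the parental mean, on the log2 scale, the 2 APC/C genes stood at -1.09 on average in transformed 7. The 3 mitotic kinases stood at -0.88, and the 6 entry and 3 centromere genes at -0.85 each. The 4 spindle checkpoint genes stood at -0.35 there and the 3 midzone genes at -0.28, with a wide range within each role. The checkpoint genes ran from -0.63 in Bub1 to 0.13 in Mad2l1, and the midzone genes from -0.49 in Prc1 to -0.04 in Anln. Cdca3, Cenpf, Ccnb2, Cdc20, Aurka, Plk1, Ube2c and Cenpa were each under 50% of their parental mean in transformed 7, from 42.7% in Cdca3 to 49.8% in Cenpa. Top2a, Anln and Mad2l1 were at 96.8%, 97.2% and 109% of it. These values come from 1 library and carry no replicate error.

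The position of the genes also moved with the values. On chromosome 2 lay 6 of the 31 genes (Nusap1, Aurka, Ube2c, Tpx2, Bub1 and Bub1b), and their median log2 fold change was -0.45, against -0.25 for the 25 genes elsewhere. The 1343 other tested genes of chromosome 2 had a median of -0.15. Among tested genes that start within 5 Mb of each of the 6, the median level lay between -0.40 and -0.16 (log2 against the parental mean) in transformed 5 to 8 and between -0.02 and 0.14 in transformed 4. Nusap1 and Bub1b share most of these neighbours. Each of the 6 genes was itself highest, among transformed libraries, in transformed 4, Bub1 only narrowly (109.8 against 109.0 CPM in transformed 6). This was not particular to chromosome 2. Of the 25 genes elsewhere, Ccnb2, Cdk1, Cdca3, Cdca8, Cenpa, Top2a, Ncapd2 and Mki67 were also highest there. After the median of the chromosome's other genes was subtracted, the median over the genes of chromosome 2 was -0.30 and that over the 25 others -0.31. With the neighbours' median subtracted, all 31 genes were negative, with a median of -0.32. Prc1 and Plk1 on chromosome 7 had neighbours with medians of 0.26 and 0.21, so that subtraction took Prc1 to -0.51 and Plk1 to -0.37.

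**Figure D3:**
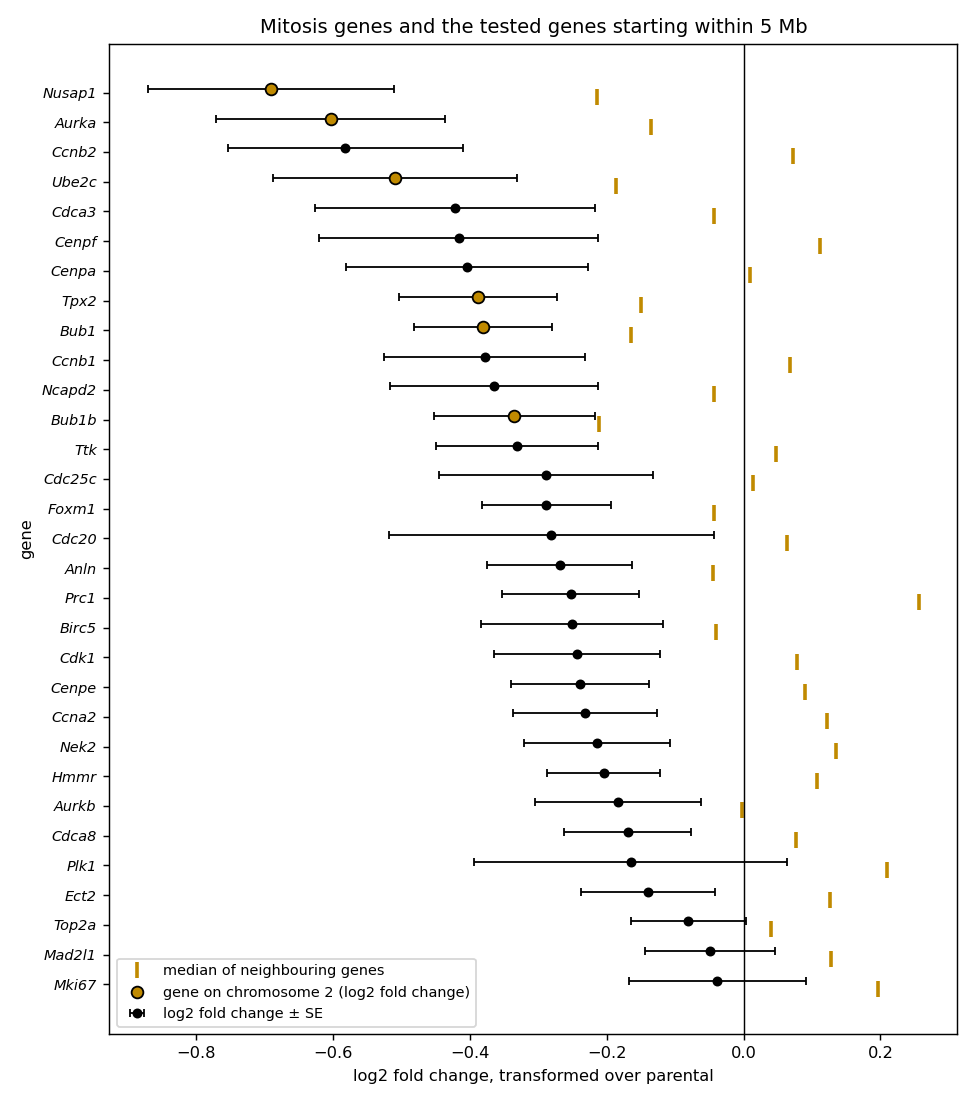
Log2 fold change, transformed over parental, with its SE for each of the 31 genes (points, filled gold for the 6 genes on chromosome 2) and the median log2 fold change of the tested genes starting within 5 Mb (gold bars). All 31 points lie below 0 and below the bar of their own neighbours.

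**Figure D4:**
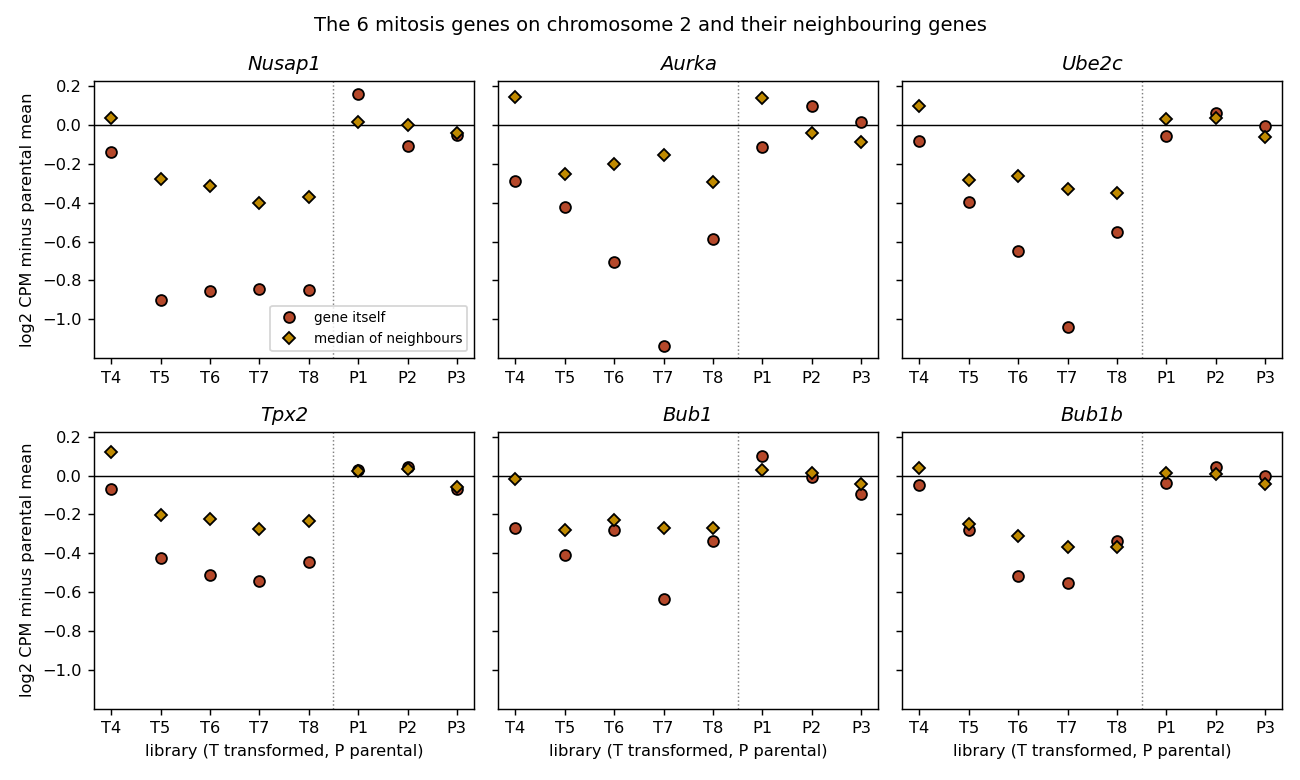
Log2 CPM minus the parental mean (vertical axes) in each library (horizontal axes, T transformed, P parental) for the 6 genes on chromosome 2 (circles) and the median of their neighbours within 5 Mb (diamonds). Neighbours lie between -0.40 and -0.16 in transformed 5 to 8 and between -0.02 and 0.14 in transformed 4.

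How many genes passed the test rested on which transformed libraries were in the fit. Without transformed 4, 9 of 31 passed as lower in edgeR (29% against 9.26% of all genes): Nusap1, Tpx2, Bub1, Bub1b, Ube2c, Aurka, Ncapd2, Ccnb2 and Ttk. Without transformed 7, 4 passed (12.9% against 4.76%): Bub1, Aurka, Anln and Ccnb2. With both left out, a setting chosen after the data were seen, 15 passed (48.4% against 16.1%), among them Ccnb1, Cenpa, Cenpf, Cdca3 and Foxm1. Within lane 6, with 2 transformed and 2 parental libraries, 9 passed (29% against 10.8%). In these settings 0 of the 31 genes passed as higher. Among all genes 2238 of 17421 passed as higher with transformed 4 and 7 left out, and at most 1100 with 1 library left out. Without transformed 5, 6 or 8, 0 of 31 passed, against 0.397%, 0.329% and 0.351% of all genes, and without parental 1, 2 or 3 again 0, against 0.354%, 0.183% and 0.116%. With lane as a covariate 0 of 31 passed (0.445% of all genes), and within lane 7 0 of 31 (0% of all genes).

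**Figure D5:**
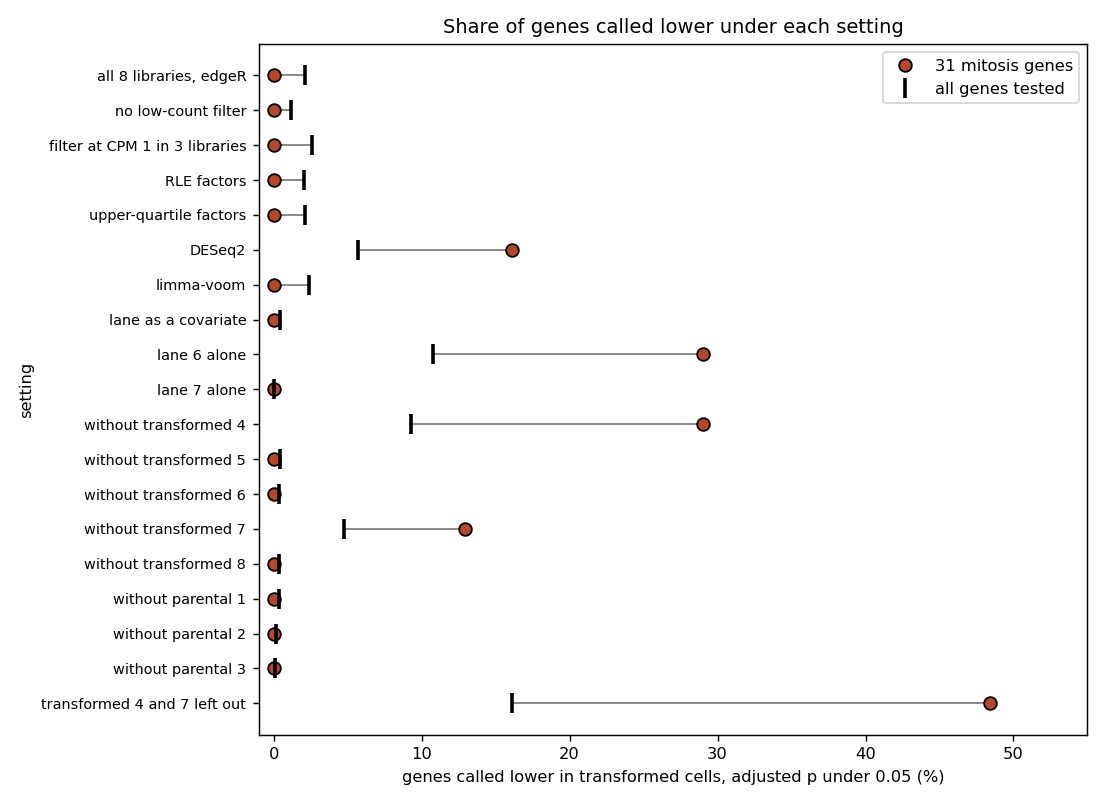
Percentage of genes called lower in transformed cells (horizontal axis, adjusted p under 0.05) among the 31 genes (circles) and among all genes tested (bars), for each setting (rows). The circle lies to the right of the bar with DESeq2, within lane 6, without transformed 4, without transformed 7 and without both, where it reaches 48.4%, and elsewhere it is at 0.

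Other genes of cell division were read from lists chosen by function. Of 66 other mitotic genes, 57 had negative log2 fold changes (median -0.24), 4 passed as lower in edgeR (6.06%, against 2.1% of all genes) and 0 as higher. In 27 of them (40.9%, against 9.69% of all genes) all transformed libraries lay below all parental ones. DESeq2 called 15 of the 66 lower (against 5.67% of all genes) and 1 higher, and all genes it called higher are counted below. Cep55, which acts at abscission, fell to 100.01 ± 7.37 CPM in transformed cells (SD, n = 5), against 141 ± 1.71 CPM in parental cells (SD, n = 3; edgeR adjusted p = 0.0250). Cenpl, a subunit of the inner kinetochore, fell to 23.4 ± 2.27 CPM against 34.8 ± 1.25 CPM (edgeR adjusted p = 0.0294). Incenp, the scaffold of the passenger complex, fell to 238 ± 22.5 CPM in transformed cells against 334 ± 15.1 CPM in parental cells (edgeR adjusted p = 0.0338), unlike its partners Aurkb, Birc5 and Cdca8, which missed the threshold. The difference between Incenp and its partners was not tested. The fourth was Mastl, the greatwall kinase that protects CDK1 substrates (log2 fold change -0.78, SE 0.17, edgeR adjusted p = 0.0430), on chromosome 2. None of the 4 passed with lane as a covariate, or without transformed 5 or 8. The 12 mitotic kinesins were all negative (median -0.39), and Kif11, Kif23 and Kif20b (25% of the 12, against 2.1% of all genes) passed as lower, with log2 fold changes of -0.62, -0.50 and -0.55 (edgeR adjusted p = 0.0128, 0.0273 and 0.0447). Of the other called genes, Incenp, Cep55, Kif11 and Kif20b lie on chromosome 19, Cenpl on chromosome 1 and Kif23 on chromosome 9. On chromosome 19, Kif20b, Kif11 and Cep55 start at bases 34922361, 37376403 and 38055011. No median or share over all genes of chromosome 19 is given here, and the part of position in these calls was not tested. Leaving out any single parental library, or transformed 6, ended the calls of all 7 of these genes. With lane as a covariate Kif11 still passed, and Kif23 and Kif20b did not.

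Of 21 regulators of this programme, 13 were negative (median -0.05). None was called in edgeR or limma-voom. At an unadjusted p under 0.05, 3 were lower (14.3%, against 11.6% of all genes) and 1 higher (4.76%, against 10.6% of all genes). DESeq2 called 1 of the 21, Tfdp2, as lower, against 5.67% of all genes. Tfdp2, a partner of E2F factors, had a log2 fold change of -0.51 (SE 0.12, edgeR adjusted p = 0.0572). Rbl2, the p130 pocket protein of the repressive DREAM complex, had -0.62 (SE 0.22, edgeR adjusted p = 0.145). Mybl2, which encodes B-MYB and lies on chromosome 2, had -0.46 (SE 0.17, edgeR adjusted p = 0.171). Of 42 genes of DNA replication, 34 were negative (median -0.12), and 0 were called in edgeR or limma-voom. At an unadjusted p under 0.05, 5 were lower (11.9%, close to the 11.6% of all genes) and 1 higher (2.38%, against 10.6% of all genes). DESeq2 called 1 of the 42, Gins4, as lower (against 5.67% of all genes) and 1, Cdc6, as higher. All genes that DESeq2 called higher are counted below, and this single call is not read as a result about the list. Gins4 and Gins2, subunits of the replicative helicase, had log2 fold changes of -0.39 (SE 0.10, edgeR adjusted p = 0.0619) and -0.41 (SE 0.14, edgeR adjusted p = 0.128). Exons of Gins2 overlap Gse1 on the opposite strand over 67.3% of their length, and the strand setting of the counts is not given. The origin licensing factor Cdc6 went the other way, at 85.5 ± 4.63 CPM (SD, n = 5) in transformed and 72.4 ± 0.666 CPM (SD, n = 3) in parental cells. Its log2 fold change was 0.24 (SE 0.08, edgeR adjusted p = 0.118), without overlap between groups.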

How the data were processed

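PolyA RNA was sequenced from 8 libraries of mouse Ba/F3 cells (5 transformed, 3 parental), grouped by their titles. The authors deposited raw read counts per Ensembl gene, not normalised. Alignment and counting tools in the submitters' processing notes are STAR 2.5.3a and featureCounts 1.5.3, with builds mm10 and GRCm38.p5. No source used here gives the strand setting, the annotation release or the treatment of multimapping reads. Symbols, positions and exon lengths came from GENCODE M21 (GRCm38), which matched 53360 of 53465 genes. All 31 genes were matched.

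From the counts, groups were compared by edgeR's quasi-likelihood F test (edgeR 4.0.16 in R 4.3.3), robust and 2-sided, after filterByExpr and TMM scaling, with Benjamini-Hochberg adjustment over 17733 genes and a threshold of 0.05. CPM values are TMM-scaled, log2 levels used a prior count of 2, and SEs come from the F statistic. Alternatives were DESeq2 1.42.0, limma-voom (limma 3.58.1), other factors and filters, lane, and libraries left out. The step was tested on simulated counts. The genes, their roles, the comparison lists and the rule for naming (values in every library for the 12 genes with the smallest p and the first of each role without 1 among them, and the 3 smallest p of each comparison list) were chosen with earlier results of these data known. Other genes given library by library were chosen after their values were seen. Intervals of counting error are not given, since each gene had at least 579 counts in every library.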

Additional observations from a re-analysis of the deposited data

Results flagged for a closer look

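The highest or lowest of the 5 transformed libraries lay far from the other 4 in 8 of the 31 genes, in their mean and in Kif11, by a gap of more than 0.71 of the range. For a single group of normal values chance gives this in about 1 of 20, and 45 groups were examined. These groups are not independent, since all share the same 5 libraries and 1 is the mean over the 31 genes. No expected count follows from that rate. Transformed 7 was the low one in Cdk1 (91.9 CPM), Cdca3 (46.3 CPM), Aurkb (121 CPM), Cenpf (49.4 CPM), Cdc20 (52.7 CPM) and Kif11 (152 CPM), and in the mean over the 31 genes (-0.63, log2 against the parental mean). Transformed 4 was the low one in Ttk (42.1 CPM) and the high one in Tpx2 (254 CPM) and Nusap1 (203 CPM).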

How the results depend on the processing

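The median log2 fold change of the 31 genes was negative under each of the 20 alternatives, from -0.37 within lane 7 to -0.18 within lane 6. It moved by less than the spread between transformed libraries (SD 0.18). That is a wide yardstick, since transformed 7 lay at -0.63 and the other transformed libraries between -0.30 and -0.19. Leaving out transformed 7 itself moved the median from -0.28 to -0.21. No scaling moved the median of all genes by more than 0.1. Counts of calls were less stable. DESeq2 called 5 of the 31 genes, 15 other mitotic genes, 1001 genes lower and 850 higher in all, of 17659 genes with an adjusted p. Lane 6 alone gave 9, 27, 1883 and 1682. With transformed 4 and 7 left out they were 15, 35, 2804 and 2238. Lane as a covariate gave 0 other mitotic genes, 79 lower and 15 higher in all, and lane 7 alone, whose 1 parental library is taken to vary like the others, gave 0, 0 and 0. Leaving out 1 library gave 0 to 9 of the 31 genes, 0 to 25 other mitotic genes, 21 to 1628 lower and 3 to 1100 higher. The cause was not tested. The sign turned for Plk1 (0.12) and Cdc20 (0.013) within lane 6, for Mad2l1 (0.13) and Mki67 (0.0039) within lane 7, and, with 1 library left out, for Mad2l1 (range -0.0999 to 0.013, without parental 1) and Mki67 (-0.12 to 0.0402, without parental 1, and 0.02 without transformed 7), none of them past the threshold. No paired analysis was possible because the groups share no replicate numbers.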

Other observations

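Away from chromosome 2, neighbouring genes stood low in transformed 4 around Birc5, Cdc25c and Ttk, but not around all genes that were low there. Birc5 was at -0.55 (log2 against the parental mean) in transformed 4, and the 182 tested genes starting within 5 Mb had a median of -0.34 there, against -0.12 to 0.03 in transformed 5 to 8. Cdc25c was at -0.44 in transformed 4, with a median of -0.25 over its 116 neighbours there. Ttk was at -0.69, with a median of -0.18 over 40 neighbours. Cenpe and Anln were each at -0.45 in transformed 4, while their neighbours had medians of -0.08 and -0.03 there. Copy number was not measured in these files. The part of position in the level of these genes was not tested.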
